A study of Mus musculus with 614 samples.

Results

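The genes described here encode the subunits of the proteasome and its activators and assembly factors. They were taken as every row of the deposited expression table whose symbol begins with Psma, Psmb, Psmc, Psmd, Psme, Psmf or Psmg and a digit, which gave 50 of 43280 symbols. The 4 symbols marked "-ps", which are pseudogenes, were left out. By role, 31 of the 50 are constitutive parts of the 26S proteasome, 5 are the interferon-inducible members of the immunoproteasome and its activator, and 14 are others. Among these 14, Psmc3ip is a cofactor of meiotic recombination that shares only the symbol, and Psme2b is a near copy of Psme2.

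The proteasome degrades proteins tagged with ubiquitin. Its 20S core is built of outer alpha rings and inner beta rings, and 3 of the beta subunits, encoded by Psmb5, Psmb6 and Psmb7, cut the substrate. In immune cells these can be replaced by Psmb8, Psmb9 and Psmb10, which changes the peptides that reach MHC class I, and Psme1 and Psme2 form the PA28 cap that works beside them. The 19S cap, made of the Psmc ATPases and most Psmd proteins, recognises, unfolds and feeds in the substrate.

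Single untreated cells of adult C57BL/6J mice, 7 to 10 weeks old, were sorted by surface proteins, amplified on microfluidic chips and sequenced one library per cell. There were 12 gates, 11 from bone marrow and 1 from blood. Plasmacytoid dendritic cells (pDC, 27 cells) were sorted as B220+SiglecH+. Precursors of dendritic cells (pre-DC) were sorted as CD11c+MHCII-Flt3+ without CD172α or B220, and came from blood (16 cells) or from marrow. In marrow there were 70 SiglecH+Ly6C- cells, 70 SiglecH-Ly6C- cells, 45 cells with both proteins (SiglecH+Ly6C+) and 68 with Ly6C alone (SiglecH-Ly6C+). The other gates were common dendritic cell progenitors without CD115 (CDP, 58), common lymphoid progenitors (CLP, 48), pre-pro-B cells (30), common monocyte progenitors (cMoP, 66), granulocyte-monocyte progenitors (GMP, 51) and lymphoid-primed multipotent progenitors (LMPP, 65). No label names an animal, so each gate counted as 1 sample, no test between gates was possible, and every SD is over cells.

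Values are TPM, a share of a cell's transcripts scaled by transcript length. A level is the mean over cells of log2(TPM + 1), and a difference is between 2 gates on that scale unless stated. TPM do not show how deeply a cell was sequenced. As a substitute, the genes at 1 TPM or more were counted: the median cell had 3280 in CLP, the lowest gate, and 6671 in cMoP, the highest. Of the marker lists, the summed pDC list had a median of 7845 TPM in pDC, and the granule list 32756 TPM in GMP. The B lineage list, however, had a median sum of only 1.34 TPM in pre-pro-B cells, with 3 of its 6 genes at 0 in all of them. By their library numbers the cells fall into 9 runs, which gates share only in part, so run and gate cannot be told apart where a gate has a run of its own. GMP, CLP and pre-pro-B cells share a run that no other gate has, so the same holds where they are set against other gates. No member was at 0 in every cell.

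Psmb8 and Psmb9 lie together in the MHC region of chromosome 17, whereas the genes they replace lie elsewhere. On GRCm38, Psmb9 occupies chr17:34181987-34187764 on the minus strand and Psmb8 chr17:34197721-34201454 on the plus strand. Between them is Tap1, a peptide transporter gene, whose start site is 211 bases from that of Psmb9 on the opposite strand. Psmb5 is at chr14:54614119-54618022, Psmb6 at chr11:70525367-70527858, Psmb7 at chr2:38588036-38644087 and Psmb10 at chr8:105935735-105938444. Psme1 (chr14:55578123-55581529) and Psme2 (chr14:55587441-55591113) are neighbours. All are protein-coding genes in the GENCODE M21 annotation. Promoter windows are shown for the pairs Psmb8 with Psmb5 and Psmb9 with Psmb6, and not for Psmb10 with Psmb7. The windows are those of RefSeq for GRCm38.p6, from 250 bases before to 50 after the RefSeq start. They cover chr17:34197945-34198244 (plus strand) for Psmb8, chr14:54617946-54618245 (minus) for Psmb5, chr17:34187281-34187580 (minus) for Psmb9 and chr11:70525107-70525406 (plus) for Psmb6. The RefSeq starts differ from the GENCODE start sites, and the Psmb8 and Psmb9 windows lie wholly inside the GENCODE genes given above. Bases before the GENCODE start sites of Psmb8 and Psmb9 are thus outside these windows. Capitals mark the matches to the motifs named below.
Psmb8: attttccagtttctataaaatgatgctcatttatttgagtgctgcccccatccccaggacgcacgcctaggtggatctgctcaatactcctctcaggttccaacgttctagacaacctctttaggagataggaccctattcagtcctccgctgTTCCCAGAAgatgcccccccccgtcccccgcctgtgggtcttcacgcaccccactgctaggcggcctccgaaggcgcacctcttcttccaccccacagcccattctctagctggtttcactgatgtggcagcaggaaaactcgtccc
Psmb5: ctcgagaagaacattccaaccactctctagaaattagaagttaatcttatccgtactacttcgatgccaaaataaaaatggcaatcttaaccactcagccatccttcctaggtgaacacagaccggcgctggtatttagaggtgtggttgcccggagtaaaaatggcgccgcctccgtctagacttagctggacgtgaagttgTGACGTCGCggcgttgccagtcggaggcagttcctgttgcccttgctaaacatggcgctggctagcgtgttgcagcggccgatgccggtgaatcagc
Psmb9: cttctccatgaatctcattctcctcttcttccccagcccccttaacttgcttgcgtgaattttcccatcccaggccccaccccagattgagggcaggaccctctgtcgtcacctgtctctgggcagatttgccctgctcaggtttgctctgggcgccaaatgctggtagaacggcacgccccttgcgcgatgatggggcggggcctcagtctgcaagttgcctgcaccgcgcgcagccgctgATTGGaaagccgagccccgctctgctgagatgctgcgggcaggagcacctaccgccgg
Psmb6: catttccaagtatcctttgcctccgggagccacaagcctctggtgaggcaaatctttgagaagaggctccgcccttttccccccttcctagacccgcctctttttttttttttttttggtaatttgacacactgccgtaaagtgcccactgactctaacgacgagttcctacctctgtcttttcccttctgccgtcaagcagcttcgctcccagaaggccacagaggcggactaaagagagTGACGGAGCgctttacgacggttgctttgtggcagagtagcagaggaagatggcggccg

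Each motif was searched on both strands. The gamma-activated site TTCNNNGAA, a STAT target, stood once in the Psmb8 promoter and in 8.30% of 32851 mouse promoters. The antioxidant response core TGACNNNGC stood in the Psmb5 and Psmb6 promoters and in 12.4% of all. The CCAAT box, whose reverse complement is capitalised for Psmb9, stood in 37.4% of all promoters and in 10 of the 25 constitutive members that have an entry. An interferon regulatory element, written as 2 copies of GAAA 2 bases apart, was in none of these 4 windows. It was in the windows of 1 of the 5 immunoproteasome genes and in 3.44% of all promoters. That gene was Psme1, whose window also lies inside its GENCODE gene. A match of letters is a description and does not show that a factor binds there.

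GMP had the highest level of 39 of the 50 members, and of 28 of the 31 constitutive ones. Of 12660 genes seen at 1 TPM in 20% or more of the cells of any gate, 35.1% had their highest level in GMP. The lowest level was in pDC for 18 members and in blood pre-DC for 16, and over all those genes for 14.04% in pDC and 25.8% in blood pre-DC. By mean TPM, which weighs strong cells more and undetected cells less, GMP led for 25 members and 20 constitutive ones, and for 9.72% of all those genes, and pDC were lowest for 21 members and for 14.7% of all. Summed over the 31 constitutive genes, the median cell held 13150 TPM in GMP, 10395 in pre-pro-B cells, 10387 in CLP and 9551 in cMoP. GMP, pre-pro-B cells and CLP make up a run without other gates, so run and gate cannot be told apart in their lead. The 4 marrow pre-DC gates lay between 6540 (SiglecH+Ly6C-) and 8349 TPM (SiglecH-Ly6C+), with blood pre-DC at 7264 and LMPP at 7238. CDP had 5846 TPM and pDC the lowest median, 5097 TPM. The cells of all gates overlapped in range with those of at least one neighbour in this order: GMP cells ran from 7760 to 16949 TPM and pDC cells from 204 to 10899 TPM.

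**Figure D1:**
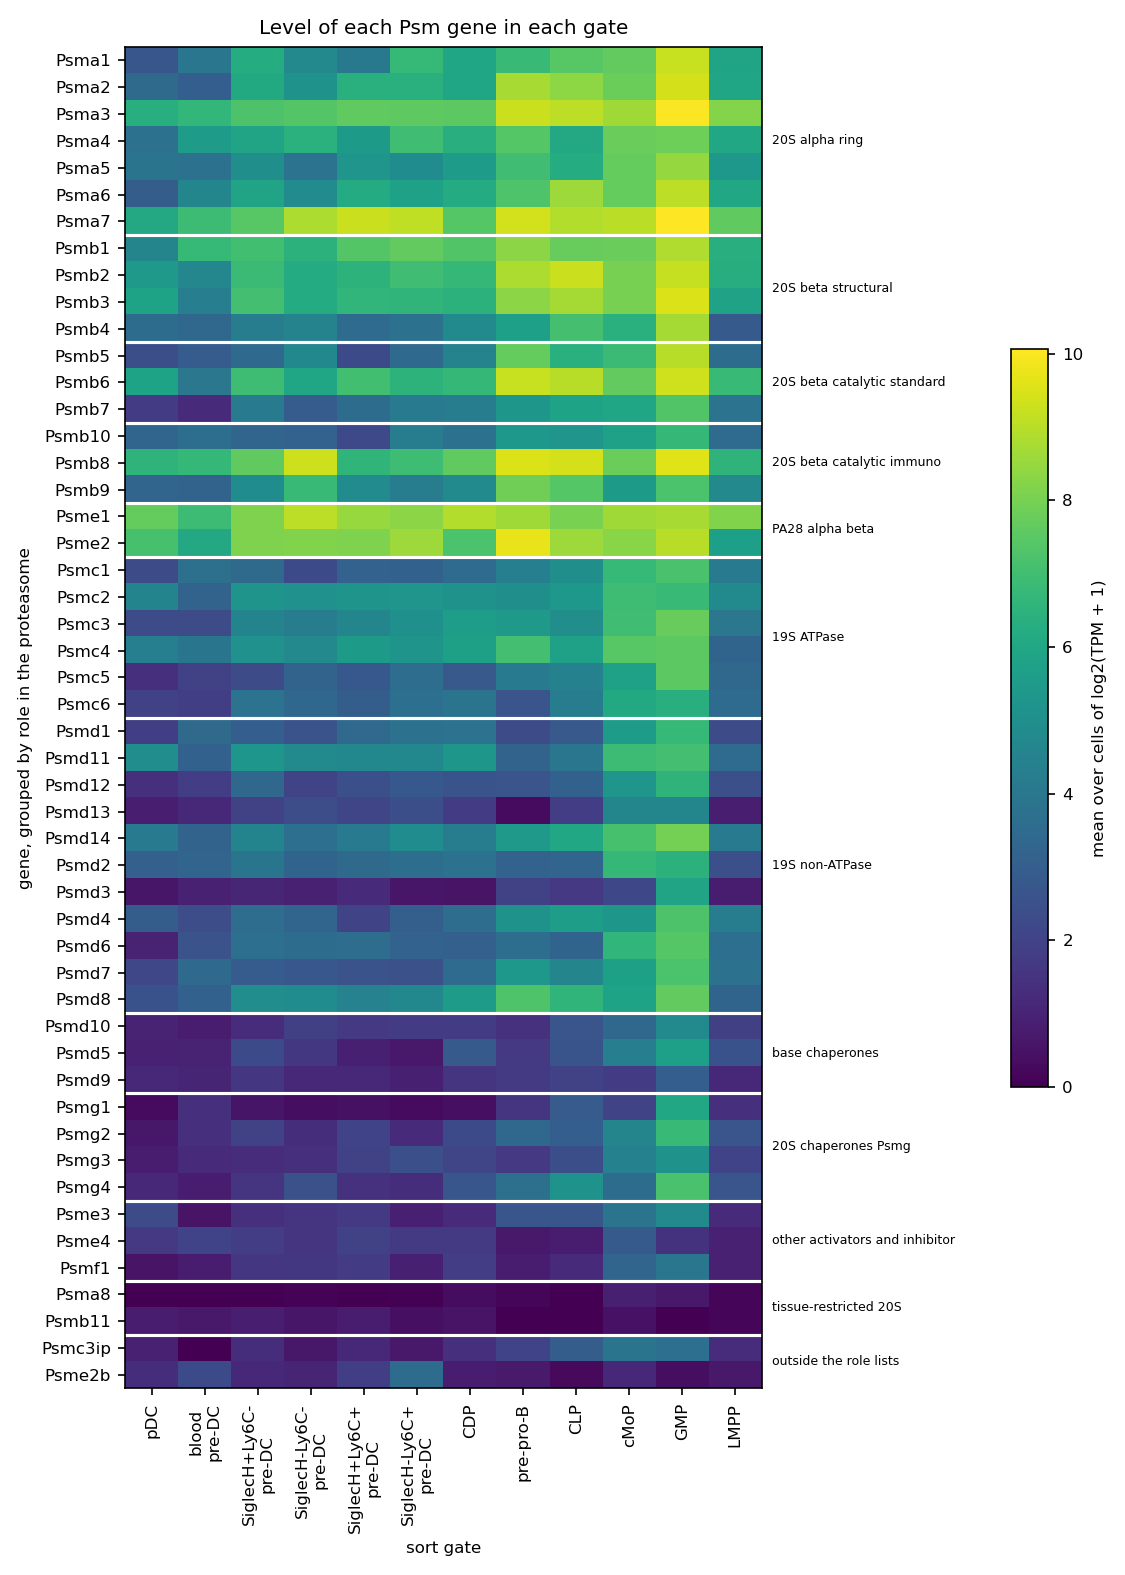
Mean over cells of log2(TPM + 1) (colour) for each of the 50 genes (rows, grouped by role) in each of the 12 gates (columns). GMP is the brightest column for 39 genes. In SiglecH-Ly6C- pre-DC Psmb8 (9.31) is far brighter than Psmb5 (4.70), while Psmb9 (6.84) and Psmb6 (5.98) are closer. Psmb8 is also far brighter than Psmb5 in SiglecH+Ly6C- (7.60 against 3.45) and SiglecH+Ly6C+ pre-DC (6.60 against 2.26) and in pDC (6.54 against 2.41).

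**Figure D2:**
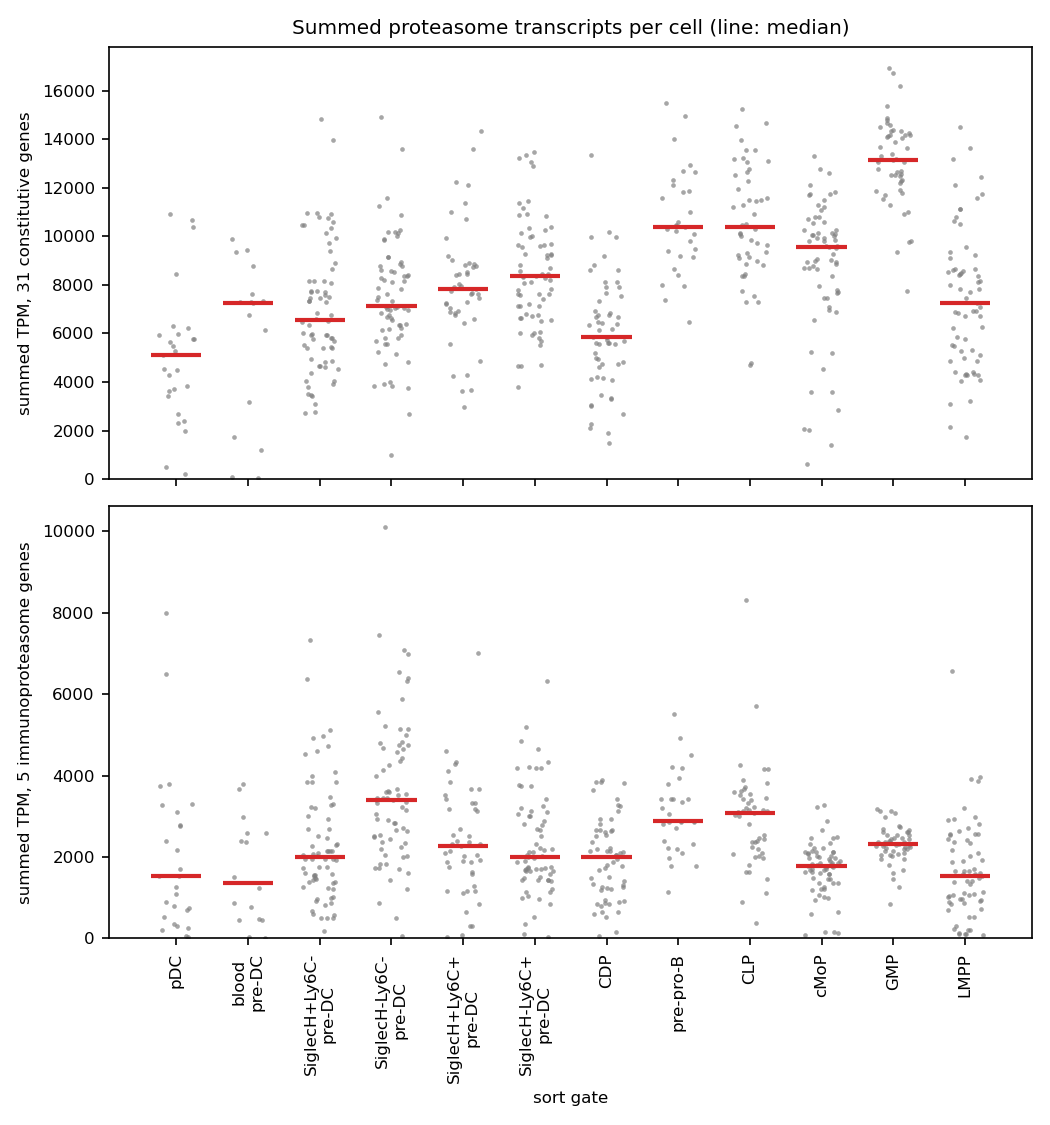
Summed TPM per cell of the 31 constitutive genes (top) and of the 5 immunoproteasome genes (bottom) in each gate, 1 point per cell with the gate median as a line. GMP has the highest constitutive median, 13150 TPM, and SiglecH-Ly6C- pre-DC the highest immunoproteasome median, 3400 TPM.

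Within the core, levels were far from equal. In GMP the alpha subunits, which form the gated outer rings, ran from 7.84 for Psma4 to 10.07 for Psma7, and the structural beta subunits from 8.71 for Psmb4 to 9.53 for Psmb3. The 19S ATPases ran from 6.30 for Psmc6 to 7.74 for Psmc3, and the non-ATPase subunits from 4.63 for Psmd13 to 7.97 for Psmd14, the deubiquitinase of the cap. In pDC the same groups ran from 2.68 (Psma1) to 6.33 (Psma3), from 3.56 (Psmb4) to 5.86 (Psmb3), from 1.34 (Psmc5) to 4.53 (Psmc2) and from 0.60 (Psmd3) to 4.95 (Psmd11). Alpha and structural beta transcripts were thus more abundant per length than most cap transcripts in both gates. The catalytic core gene Psmb7, at 1.79 in pDC, was below most cap genes there. The Psmg chaperones, which assemble the core, all had their highest level in GMP. Psmg1 had a level of 6.04 in GMP and at most 2.90 in any other gate, and Psmg4 7.19 in GMP and at most 5.15 elsewhere. Across the 12 gate levels the 465 pairs of constitutive genes had a median Pearson r of 0.79, with a range of 0.27 to 0.97. These points share libraries and gene detection, and the value is a description.

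Some members are read with less certainty because their sequence is not unique. Of the members' 50-base windows, 57.1% in Psmb5, 59.3% in Psme2, 69.3% in Psme2b, 55.8% in Psmb3 and 54.5% in Psma5 also occur in another gene or pseudogene of the annotation. None did for 28 members, Psmb7 to Psmb10 among them. Psme2b took 28.01% of the joint Psme2 and Psme2b TPM in blood pre-DC and 15.5% in SiglecH-Ly6C+ pre-DC, against 0.271% in GMP. Whether these are its own transcripts cannot be told from the deposited values. The tissue-restricted core members were near absent: Psma8, a testis alpha subunit, had levels of at most 0.88 (cMoP), and Psmb11, the thymus beta subunit, of at most 0.84 (SiglecH+Ly6C- pre-DC). The activators outside the immunoproteasome were low too. Psme3 was highest in GMP (4.78), Psme4 in cMoP (2.84) and the inhibitor Psmf1 in GMP (3.95).

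Psmb8, the inducible counterpart of Psmb5, was the most abundant catalytic transcript in SiglecH-Ly6C- pre-DC. Its mean was 1203 TPM there, 1136 in CLP, 936 in pre-pro-B cells, 814 in GMP, 525 in SiglecH+Ly6C- pre-DC, 473 in pDC, 424 in CDP and 422 in blood pre-DC. The remaining gates had 381 TPM (cMoP), 376 (SiglecH-Ly6C+ pre-DC), 368 (SiglecH+Ly6C+ pre-DC) and 360 (LMPP). On the log scale GMP (9.56 ± 0.61, SD over 51 cells), pre-pro-B cells (9.52 ± 1.35, 30 cells), CLP (9.44 ± 2.22, 48 cells) and SiglecH-Ly6C- pre-DC (9.31 ± 2.40, 70 cells) lay within 1 SD of each other. The other 8 gates had levels of 6.54 (pDC) to 7.82 (cMoP), with SDs of 2.11 to 3.52. A level of 100 TPM was reached for Psmb8 by 88.6% of the SiglecH-Ly6C- pre-DC and 68.6% of the SiglecH+Ly6C- ones, while among Ly6C+ cells 60.3% without SiglecH and 57.8% with it reached that level. It was at that level in 100% of GMP cells, 96.7% of pre-pro-B cells and 93.8% of CLP. At 1 TPM it was in at least 86.2% of the cells of every gate, and no gate lacks the proteasome, so a background share could not be set.

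Psmb9, the counterpart of Psmb6, had its highest mean, 434 TPM, also in SiglecH-Ly6C- pre-DC, and 418 TPM in pre-pro-B cells and 289 TPM in CLP. Elsewhere the means lay between 79.8 TPM (blood pre-DC) and 224 TPM (SiglecH+Ly6C- pre-DC). On the log scale, however, pre-pro-B cells led (7.90 ± 2.27), before CLP (7.40 ± 2.26), GMP (7.23 ± 1.46) and SiglecH-Ly6C- pre-DC (6.84 ± 3.42), and blood pre-DC (3.21 ± 3.37) and pDC (3.29 ± 3.35) were lowest. Psmb10, the counterpart of Psmb7, had means of 52.5 TPM (SiglecH+Ly6C+ pre-DC) to 170 TPM (CLP). By mean TPM it was below both Psmb8 and Psmb9, except in pDC, blood pre-DC and cMoP, where it exceeded Psmb9. Its level was 6.72 in GMP and 2.21 in SiglecH+Ly6C+ pre-DC.

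**Figure D3:**
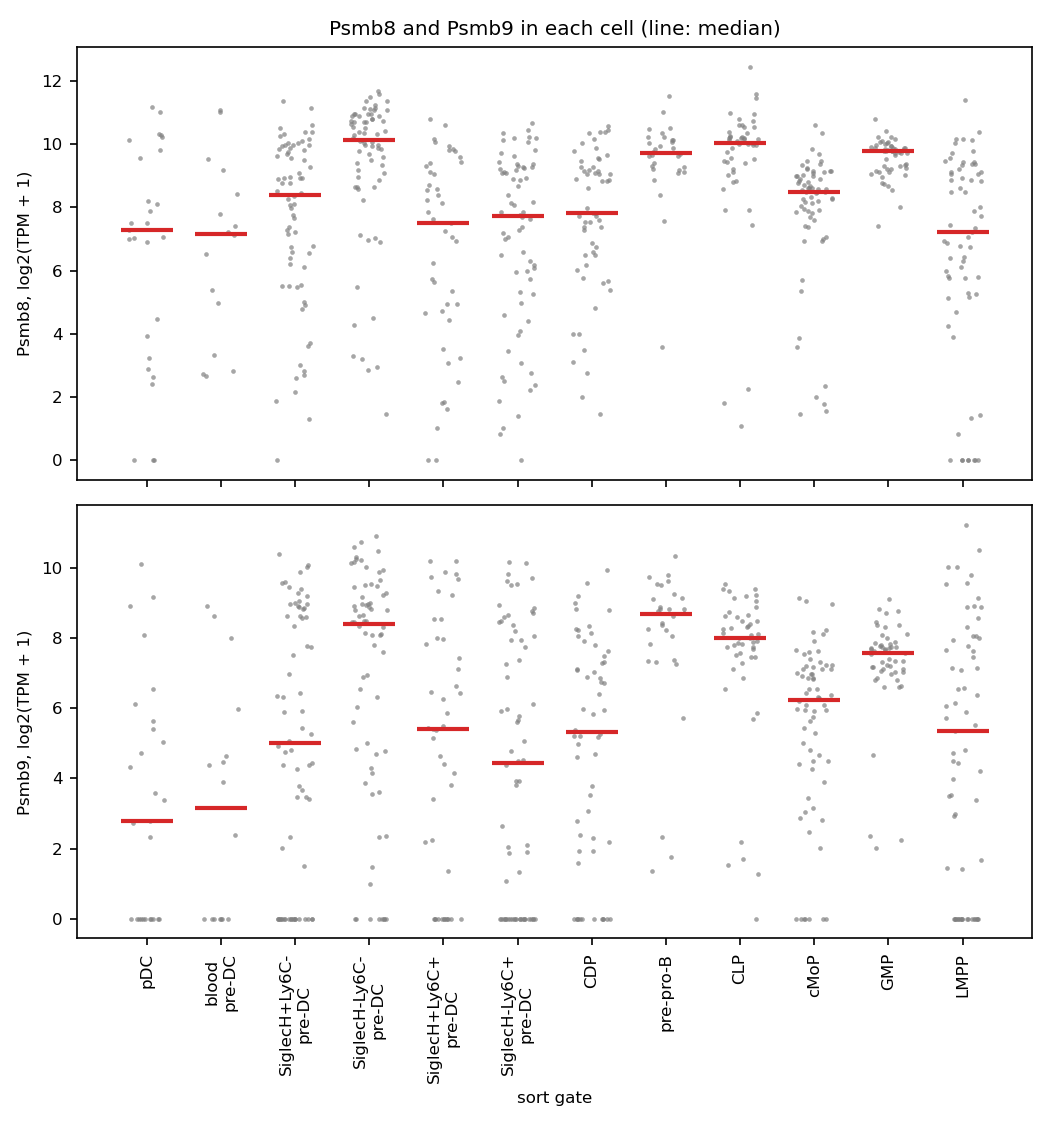
log2(TPM + 1) of Psmb8 (top) and Psmb9 (bottom) in each cell, by gate, with the gate median as a line. Cells under 1 TPM occur in 10 gates for Psmb9 and in 5 for Psmb8, and 8 cells in 3 gates (pDC, SiglecH-Ly6C+ pre-DC and LMPP) lack both. The median Psmb8 cell of SiglecH-Ly6C- pre-DC, at 1120 TPM, is above that of the other pre-DC gates.

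Of the constitutive catalytic genes, Psmb5 differed most between gates. Its mean was 566 TPM in GMP, 476 in pre-pro-B cells and 394 in CLP, which share a run that the other gates lack. It was 54.7 TPM in SiglecH+Ly6C+ pre-DC and 56.4 in blood pre-DC. Psmb6 ran from 201 TPM (blood pre-DC) to 969 TPM (pre-pro-B cells), and Psmb7 from 37.5 TPM (blood pre-DC) to 217 TPM (GMP). PA28 varied less: the mean of Psme1 ran from 518 TPM (blood pre-DC) to 1130 TPM (SiglecH-Ly6C- pre-DC), and that of Psme2 from 273 TPM (LMPP) to 988 TPM (pre-pro-B cells). Psme1 and Psme2 made up 94.6% (GMP) to 99.0% (SiglecH-Ly6C+ pre-DC) of the summed PA28 transcripts, which include Psme3.

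The immunoproteasome share of catalytic transcripts sets these genes against each other. It is the mean TPM of Psmb8, Psmb9 and Psmb10 as a percentage of that of all 6 catalytic genes. The share was 69.2% in SiglecH-Ly6C- pre-DC and 68.2% in blood pre-DC. CLP (54.7%), SiglecH+Ly6C- pre-DC (52.3%) and CDP (50.3%) followed. Below 50% were SiglecH-Ly6C+ pre-DC (48.5%), pre-pro-B cells (48.1%), pDC, LMPP (46.2%), cMoP (44.03%), SiglecH+Ly6C+ pre-DC (43.8%) and GMP (42.5%). In pDC the share was 42.9% over the 24 cells of one run and 79.9% over the 3 of another. Taken per cell, the order was another one. The median cell had 87.4% in blood pre-DC, the highest gate, with an SD of 37.9, and 69.3% in SiglecH-Ly6C- pre-DC with an SD of 22.7. SiglecH+Ly6C+ pre-DC had a median of 54.8%, above 50%, and the lowest medians were those of GMP (42.9%, with an SD of 8.96), cMoP (41.9%) and pDC (40.1%). The share passed 50% in 58 of 70 SiglecH-Ly6C- pre-DC (82.9%, exact Clopper-Pearson 95% interval 72.0 to 90.8). It did so in 10 of 16 blood pre-DC (62.5%, 35.4 to 84.8), fewer than in SiglecH-Ly6C- pre-DC despite the higher median. It also did so in 9 of 51 GMP cells (17.6%, 8.40 to 30.9), and in 55.7% (43.3 to 67.6) of the SiglecH+Ly6C- pre-DC. Such intervals cover counting error only. Neighbouring gates in the middle of this order differed by far less than the SD over their cells.

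The pairs were not exchanged alike. Psmb8 exceeded Psmb5 in all 12 gates, with 58.99% (GMP) to 88.2% (blood pre-DC) of their sum. By mean TPM, Psmb9 exceeded Psmb6 in SiglecH-Ly6C- pre-DC only, with 50.5%. In the other 11 gates it had between 14.6% (pDC) and 32.1% (SiglecH+Ly6C- pre-DC). Psmb10 had 22.6% (SiglecH+Ly6C+ pre-DC) to 77.8% (blood pre-DC) of its sum with Psmb7. By cell, Psmb9 was above Psmb6 in 33 of 70 SiglecH-Ly6C- pre-DC (47.1%, 35.1 to 59.4) and in 0 of 51 GMP (upper limit 6.98% by the same exact interval, or 5.88% as 3 cells of 51). By mean TPM, though not by the median cell, GMP had the lowest joint share, beside the highest mean Psmb5 of all gates.

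**Figure D4:**
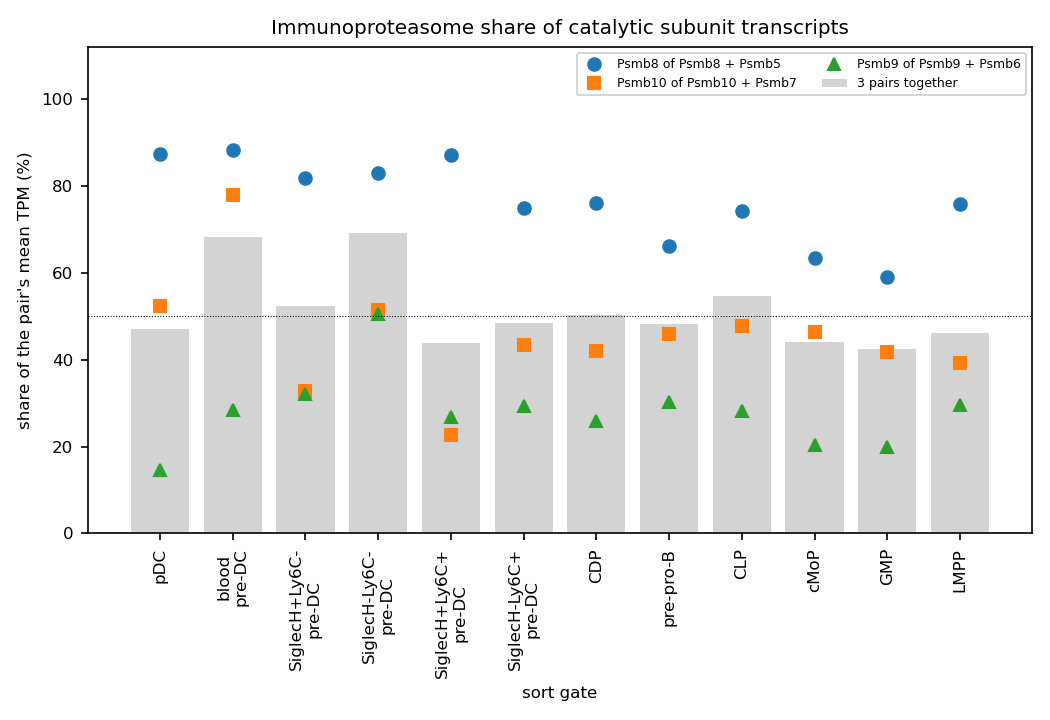
Share (%) of immunoproteasome transcripts among catalytic subunit transcripts, from mean TPM, by gate. Bars are the 3 pairs together and symbols each pair, and the dotted line is 50%. The Psmb8 symbols lie above 50% in all gates and the Psmb9 symbols below it except in SiglecH-Ly6C- pre-DC, at 50.5%.

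Between the Ly6C- pre-DC, SiglecH+ cells had less Psmb8 and Psmb9 than SiglecH- cells. Most constitutive genes were slightly higher on the log scale, as were 72.3% of all genes tested, but from mean TPM their median was -0.029, beside 0.18 for all genes. Psmb8 had a level of 7.60 ± 2.72 in SiglecH+Ly6C- and 9.31 ± 2.40 in SiglecH-Ly6C- pre-DC (SD, 70 cells each), a difference of -1.72. Psmb9 was at 4.90 ± 3.77 in SiglecH+Ly6C- and 6.84 ± 3.42 in SiglecH-Ly6C- pre-DC, a difference of -1.94. Psmb5, the constitutive counterpart of Psmb8, was lower too, at 3.45 in SiglecH+Ly6C- and 4.70 in SiglecH-Ly6C- pre-DC. By mean TPM, Psmb8 had 81.8% of its sum with Psmb5 in SiglecH+Ly6C- and 83.0% in SiglecH-Ly6C- pre-DC. Of the 5 immunoproteasome genes 4 were lower (median of the 5, -0.93), and 2 were lower by 1 or more, against a background of 3.88% of 9125 genes. Of the 31 constitutive genes 24 were higher in SiglecH+Ly6C- cells, at a median of 0.39 beside 0.28 over all genes tested, and 6 were higher by 1 or more, against a background of 13.7%. The highest were Psma1 (1.48), Psmd12 (1.34) and Psmb7 (1.24), and the lowest besides Psmb8 and Psmb9 was Psma7 (-1.39). Psma7 and Psmb5 were the constitutive genes lower by 1 or more, against the background of 3.88%. Within the run that both gates share, 19 SiglecH+Ly6C- cells against 70 SiglecH-Ly6C- cells, Psmb8 differed by -1.72 and Psmb9 by -2.27, with medians of -1.72 for the 5 immunoproteasome genes and 0.63 for the constitutive ones. From mean TPM the median of the 5 was -0.52.

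Markers moved along with this contrast. All 9 genes of the conventional dendritic cell list were lower in SiglecH+Ly6C- pre-DC, where the list's summed TPM had a median of 67.6 and a range of 0 to 46439, against a median of 23930 and a range of 40.7 to 82745 in SiglecH-Ly6C- pre-DC. No gene of that list was at 0 in all cells of either gate. All 15 S phase genes were higher in SiglecH+Ly6C- cells, with a median difference of 1.49. Their part in the result was not tested. The genes around the exchanged subunits did not all go the same way. Of 11 MHC class I loading genes 5 were higher and 6 lower, from B2m (0.51) and the coactivator Nlrc5 (0.43) to Tap2 (-0.93), the transporter subunit next to Psmb8. Of the 14 interferon response genes 9 were higher and 4 lower, with Irf1 (1.79) highest and Irf9 (-0.54) lowest. Pomp, the maturation factor of the core, had a level of 6.87 in SiglecH+Ly6C- and 8.39 in SiglecH-Ly6C- pre-DC.

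SiglecH-Ly6C- pre-DC also stood above their Ly6C+ counterpart and CDP in Psmb8 and Psmb9, but not in Psmb10. The level of Psmb10 was 3.18 in these cells, below 4.24 for the Ly6C+ counterpart and 3.76 for CDP. Psme1, at 9.07, was above both (8.33 for the counterpart and 8.90 for CDP). Psme2, at 8.18, was below the counterpart (8.59) and above CDP (7.23). Against SiglecH-Ly6C+ pre-DC, Psmb9 differed by 2.57 and Psmb8 by 2.38, while the median constitutive gene was at -0.41 and that of all genes at 0.01. Against CDP, Psmb9 differed by 2.01 and Psmb8 by 1.70, with a constitutive median of -0.56 beside -0.33 for all genes, which from mean TPM was 0.15 for the constitutive genes. The conventional dendritic cell list was higher in 9 of 9 genes in both comparisons. These comparisons share the SiglecH-Ly6C- cells, and neither pair of gates shares a run, which leaves run and gate confounded in them.

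pDC had lower levels of proteasome transcripts than both gates they were set against, more so on the log scale than by mean TPM. Against SiglecH+Ly6C- pre-DC all 31 constitutive genes were lower, as were 73.2% of all genes tested, at a median of -1.14 beside -0.41 over all genes tested, and 20 were lower by 1 or more, against a background of 21.7% of 9313 genes. None was higher by 1 or more, against a background of 2.89%. The alpha ring was lowest, with a median of -2.11. Psma1 had a level of 2.68 ± 3.28 in pDC (27 cells) and 6.22 ± 3.77 in SiglecH+Ly6C- pre-DC (70 cells), a difference of -3.53, followed by Psma6 (-2.93) and the lid subunit Psmd6 (-2.73). The highest member was Psme3, the nuclear PA28 gene (0.97), and the 5 immunoproteasome genes had a median of -1.01. From mean TPM instead, the constitutive median was -0.70, beside -0.30 for all genes, and that of the 5 genes -0.15.

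Against CDP, 30 of 31 constitutive genes were lower in pDC, as were 70.9% of all genes tested, at a median of -1.38 beside -0.44 over all genes tested, and 22 were lower by 1 or more, against a background of 27.1% of 9537 genes. None was higher by 1 or more (background 4.77%). From mean TPM the constitutive median was only -0.39, close to -0.23 for all genes. Psma1 (-3.29), the ATPase Psmc3 (-3.25) and Psma6 (-3.24) were lowest, and Psme3 was highest (1.12). Of the 31, 30 passed the filter on low values, and in the other main comparisons all 31 did. The constitutive exception was Psmd3, a scarce lid subunit, at 0.06. All 5 immunoproteasome genes were lower on this scale, with a median of -1.07, but from mean TPM that median was 0.16, so its direction depends on the scale. For Psmb8 the median cell had 157 TPM in pDC and 226 TPM in CDP, whereas the means were 473 TPM in pDC and 424 TPM in CDP. Psmb8 was at 1 TPM or more in 88.9% of pDC and 100% of CDP. Psmd11 was far above CDP by mean TPM, at 447 TPM in pDC against 165 TPM in CDP, but 6 of the 27 pDC held 97.3% of that sum and the median pDC had 17.9 TPM. Fewer cells with a transcript and less of it per cell both lower such means. S phase genes were lower in pDC in 15 of 15 cases against both gates. Their part in the result was not tested.

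Among the pathway genes outside the rule, most of those that work on the proteasome were lower in pDC, as were most genes. Of 10 partners 9 were lower than in SiglecH+Ly6C- pre-DC, where 73.2% of all genes were lower, and 9 lower than in CDP, where 70.9% were. Their median was -1.26 beside -0.41 for all genes against SiglecH+Ly6C- pre-DC, and -1.05 beside -0.44 against CDP. The deubiquitinase Usp14 differed by -2.92 from SiglecH+Ly6C- pre-DC and by -2.60 from CDP. MHC class I genes were mixed: against SiglecH+Ly6C- pre-DC, H2-K1 (1.53) and B2m (1.07) were higher in pDC, and the loading factors Pdia3 (-2.16) and Tapbp (-1.31) lower. Of the 12 ubiquitin genes and shuttles 8 were lower and 4 higher in pDC against each gate.

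**Figure D5:**
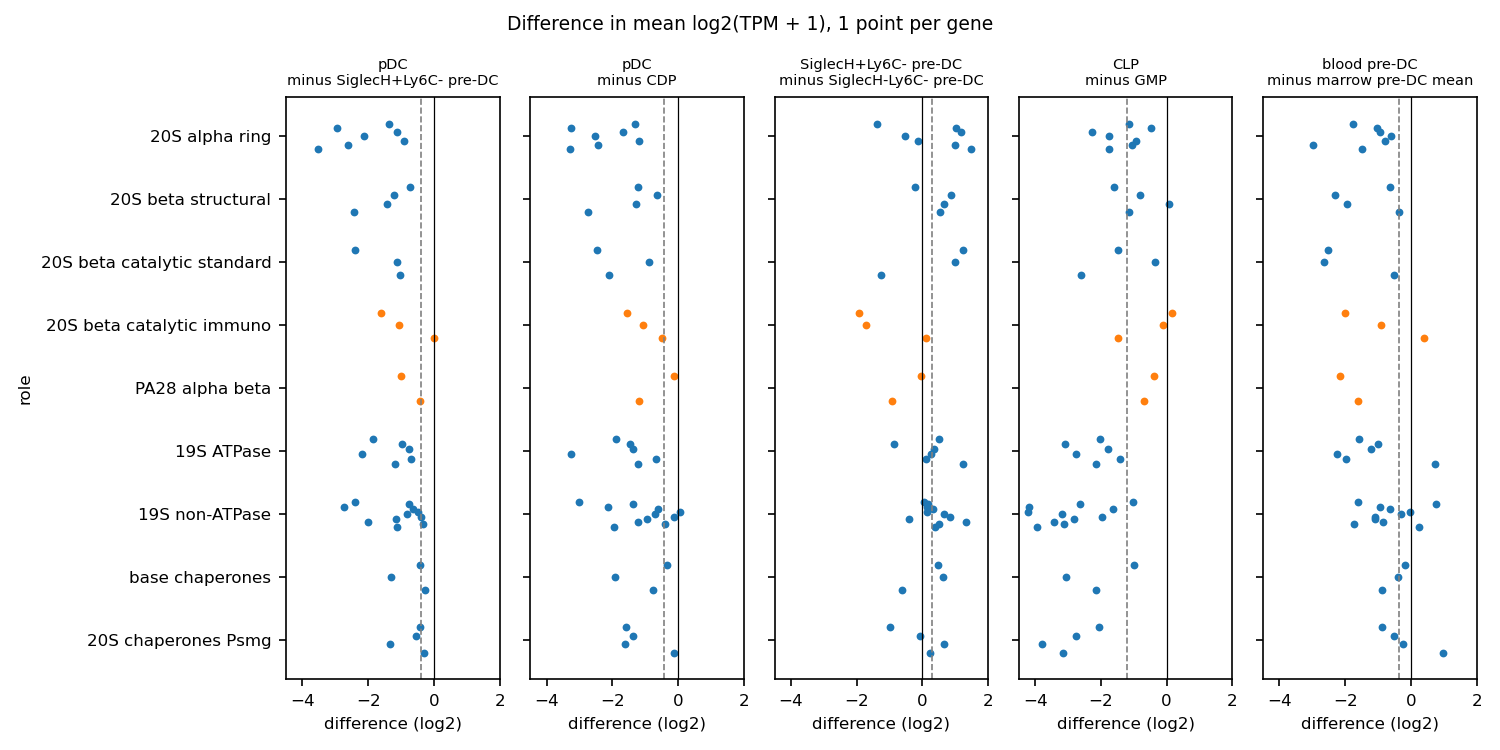
Difference in mean log2(TPM + 1) for each gene (points) by role (rows) in the 5 main comparisons (panels), orange for the immunoproteasome genes and blue for the others. The solid line is 0 and the dashed line the median of all genes tested. In both pDC panels the alpha ring lies left of the dashed line, and in the SiglecH+Ly6C- panel Psmb8 and Psmb9 are the leftmost points.

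CLP had lower levels than GMP for 30 of 31 constitutive genes, and for 89.05% of all genes tested, at a median of -1.79. Of these, 26 were lower by 1 or more, and none was higher. The backgrounds were 58.7% of 8694 genes lower and 2.52% higher, with a median of -1.22 over all of them, so lower levels in CLP were common among all genes tested. GMP also had more genes per cell, a median of 5792 against 3280 in CLP, in the same run. Among the constitutive groups the 19S subunits were lowest, with medians of -2.09 for the ATPases and -3.13 for the others, and outside them the Psmg chaperones had -2.95 and the base chaperones -2.15. The lowest members were Psmd3 (-4.22), Psmd6 (-4.17) and Psmd1 (-3.95). From mean TPM the constitutive median was only -0.35, beside -0.20 for all genes. Most immunoproteasome genes differed less: Psmb9 was at 7.40 ± 2.26 in CLP and 7.23 ± 1.46 in GMP, and Psmb8 at 9.44 ± 2.22 in CLP and 9.56 ± 0.61 in GMP. Psme2 differed by -0.39 and Psme1 by -0.70, but Psmb10 by -1.47. The median of the immunoproteasome genes was -0.39, and 0.26 from mean TPM. Some constitutive core genes also differed little, such as Psmb2 (0.08), Psmb6 (-0.35) and Psma6 (-0.49).

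For blood pre-DC the comparison was with the 4 marrow pre-DC gates, averaged with equal weight. Of the 31 constitutive genes 28 were lower in blood, as were 73.1% of all genes tested. Their median was -1.04 beside -0.37 over all genes tested. Of the 31, 17 were lower by 1 or more, against a background of 20.6% of 10035 genes. None was higher by 1 or more (background 4.60%). From mean TPM the constitutive median was -0.59 and that of all genes -0.66, so on that scale these genes were no lower than others. Psma2 (-2.99), Psmb6 (-2.63) and Psmb7 (-2.53) were lowest, and Psmg1 (0.97), Psmd7 (0.76) and Psmc1 (0.72) highest. Psmb10 was higher by 0.40, and the other 4 immunoproteasome genes were below the marrow mean (median of the 5, -1.60, or -0.55 from mean TPM and -0.62 without the 2 cells under 2000 genes). On the log scale, the high immunoproteasome share in blood thus stood beside low levels of most subunits of both kinds. By mean TPM, on which the share rests, Psmb6 (201), Psmb7 (37.5) and Psmb9 (79.8) were below all 4 marrow pre-DC gates. Psmb8 (422), Psmb10 (132) and Psmb5 (56.4) lay within the range of those gates, Psmb5 near its lower end. Both cell cycle lists were low in blood: 15 of 15 S phase genes (median -2.96) and 15 of 15 G2/M genes (median -2.41) lay below the marrow mean. The 16 blood cells have a run of their own, so blood and run cannot be told apart.

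Among the other progenitors, GMP exceeded LMPP by 1 or more in all 31 constitutive genes, at a median of 3.47 beside 1.36 over all genes and a background of 59.3% higher by 1 or more. Psmb4 (5.86) and Psmb5 (5.46) were highest. cMoP were lower than GMP in 29 of 31, at a median of -1.20 beside a median over all genes of 0.00, and 19 were lower by 1 or more against a background of 22.8%. Psmg1 (-4.00), Psmd3 (-3.69) and Psmg4 (-3.63) were lowest there, and Psme4 (1.35) highest, although cMoP had more genes per cell. CLP exceeded LMPP in 30 of 31, at a median of 1.02 beside 0.25 over all genes, and pDC were below CLP in 30 of 31, at -2.64 beside 0.11. Pre-pro-B cells and CLP, which share a run, differed little, with 14 of 31 constitutive genes higher and 17 lower in pre-pro-B cells, and all 5 immunoproteasome genes higher, at a median of 0.50, which was -0.089 from mean TPM. From mean TPM the constitutive medians of the other progenitor comparisons kept their sign at smaller sizes: 0.75 for GMP against LMPP, -0.52 for cMoP against GMP, 0.30 for CLP against LMPP and -1.13 for pDC against CLP. GMP and CLP share no run with LMPP, cMoP or pDC, so run and gate are confounded in these comparisons.

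Within a gate, the 465 pairs of constitutive genes had a median Spearman correlation over cells of 0.01 (pre-pro-B cells) to 0.21 (cMoP), with single pairs between -0.60 and 0.78. The Spearman correlation over cells between the constitutive sum and the number of genes at 1 TPM ran from -0.13 to 0.46 over the 12 gates, and that between Psmb8 and Psmb9 was 0.57 in pDC and from 0.07 to 0.22 in the other 11. With the summed S phase and G2/M transcripts the constitutive sum had rho of -0.02 to 0.54. The cells of a gate share libraries' depth and dropout, and these values are descriptions. Over the 12 gate levels, the genes most like the mean of the 5 immunoproteasome members among 6323 searched were Ywhah, Sec11c, Ccdc124, Hn1, Cox17, Arl6ip4, Uqcrq, Cox4i1, Nudc and Atp5k, with Pearson r of 0.93 to 0.95. The mean of the constitutive genes itself had r = 0.83 with it.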

How the data were processed

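The authors' deposited TPM per gene and cell come from RSEM 1.2.19 and the build GRCm38, per the submitters' processing notes (aligner and annotation not given in the sources used here). They keep no counts, so depth is unknown. Each gate was 1 sample, with no p-value. The value was the difference in mean log2(TPM + 1). The background is the genes seen at 1 TPM in 20% or more of the cells of one gate or the other, and a difference of 1 was called. Such a call describes these cells and is not a test. Named were, besides Psmb5 to Psmb10, Psme1 and Psme2, the 3 highest and 3 lowest members of each main comparison, the 2 highest and lowest of each pathway list and the 10 genes most like the immunoproteasome mean. Some genes that this rule takes from the pathway lists are not reported here, but count in their lists. Members, lists and comparisons were chosen with earlier results of these data known. Windows of 50 bases and coordinates came from GENCODE M21, and 42 of 50 members had a RefSeq promoter. Doublets were not called. Alternatives were pseudocounts, mean TPM, size factors and subsets of cells. Python 3.11.15, numpy 2.4.6, pandas 2.3.3 and scipy 1.17.1 were used. On simulated data the steps recovered the implanted sizes. A first criterion, that nearly all changed genes pass 1, was not met and was replaced, and some unaltered genes also passed 1 between cells of one gate, so a difference near 1 in a single gene is weak.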

Additional observations from a re-analysis of the deposited data

Results flagged for a closer look

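Psma1, an alpha ring subunit, differed between SiglecH+ and SiglecH- pre-DC in opposite directions. It was higher by 1.48 in SiglecH+ cells among Ly6C- pre-DC and lower by 2.66 (a difference of -2.66) among Ly6C+ pre-DC, so the 2 differences lay 4.15 apart. The difference between them was not tested. Within the run that both Ly6C- gates share it was 2.64. The 2 Ly6C+ gates share no run.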

How the results depend on the processing

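Of 96 recomputed list medians, 93 kept their sign, but 27 moved by over 1.5 times, among them all 10 from mean TPM, so their size depends on the scale. When mean TPM were compared on the log2 scale, the immunoproteasome median became 0.16 for pDC against CDP and 0.26 for CLP against GMP, the constitutive median became -0.029 for SiglecH+Ly6C- against SiglecH-Ly6C- pre-DC and -0.35 for CLP against GMP. The same setting gave Psmb8 0.16 for pDC against CDP and 0.48 for CLP against GMP. Psmb2 was at -0.036 with size factors and Psmb9 at -0.20 in cells low in cell cycle transcripts, both for CLP against GMP, and Psmb11 at -0.0091 in such cells for pDC against CDP. The cause was not tested. The median of all genes moved by over 0.1 with some scalings, most for CLP against GMP, by 1.02 with the mean TPM. The immunoproteasome share depended on the pair. Psmb8 with Psmb5 alone gave 87.4% in pDC, 87.1% in SiglecH+Ly6C+ pre-DC, 66.3% in pre-pro-B cells, 74.2% in CLP, 63.4% in cMoP and 58.99% in GMP. Psmb9 with Psmb6 alone gave 28.4% in blood pre-DC, 30.2% in pre-pro-B cells, 28.1% in CLP, 20.4% in cMoP and 19.9% in GMP. Without Psmb8 and Psmb5, an alternative chosen after seeing the data, the share was 33.2% in CLP and 25.9% in GMP. In these 5 comparisons 14 of 20 background counts moved by over 1.5 times. Asking for detection in 50% of cells left 164 genes higher for pDC against SiglecH+Ly6C- pre-DC (269 at 20%), 299 for pDC against CDP (455), 131 for CLP against GMP (219) and 289 for blood (462). A difference of 2 left 345 (2024 at a difference of 1), 662 (2588), 87 (354), 2239 (5102) and 510 (2071) genes lower in the 5 comparisons, pDC against SiglecH+Ly6C- pre-DC, pDC against CDP, SiglecH+Ly6C- against SiglecH-Ly6C- pre-DC, CLP against GMP and blood against marrow. It left 50 (269), 149 (455), 234 (1247), 76 (219) and 109 (462) genes higher in the same order. No paired analysis was possible because a cell's number only names the cell. Depth is unknown, so an undetected transcript in a cell cannot be told from a missed one. The 3 pDC of the second run are too few to describe it.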
